A study of Mus musculus with 27 samples.

Results

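The genes described here are the protein-coding genes of one stretch of mouse chromosome 1 that begins with Nifk. A gene was taken as a member when its first listed exon start lay between 118249564 and 139512521 of chromosome 1 (GRCm39), a window of 21.3 Mb. Genes whose names begin with Cfap, Dnah, Rpl, Rps or Psm were left out, which removed 1 gene, Cfap221. The rule found 167 members among 21834 protein-coding genes of the long RNA table, of which 1211 lie on chromosome 1. The bounds were chosen by the calls in Strep1 against WT in 4n cells. Values from that contrast are therefore given below as a description with no test, and the tests rest on 1n cells, on the other knock-in line and on the antisense strand.

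Long RNA was sequenced from testicular cells sorted by DNA content into 1n cells (spermatids, the haploid products of meiosis) and 4n cells (spermatocytes, which have copied their DNA and not yet divided). Each population was taken from wild type mice (WT) and from mice of 2 knock-in lines, Strep1 and Strep2, which carry a Strep II affinity tag within the N-terminal part of MIWI. There were 3 libraries for each genotype and population, 18 in all, and 5 further small RNA libraries came from MIWI purified from Strep1 testes. The genotype labels give strain RP68 for Strep1 and RP85 for Strep2, whereas RP85 and RP86 are the strains of the growth protocol, so the lines are called here by their genotype label. Each line has its own tag position. The labels used here do not give the strain background, the ages of the sorted animals, whether the tag was on both alleles, or which libraries came from separate animals. The p-values below therefore measure the spread between libraries, which may be technical in part.

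Neighbouring genes on a chromosome are inherited together, but they need not share a function or a pattern of expression. The members are such a mixture: a subunit of the helicase that unwinds DNA for replication (Mcm6), a histone demethylase (Kdm5b), immunoglobulin-receptor genes (Fcmr, Pigr), interleukins (Il10, Il19, Il20, Il24), kinesins, and the sperm acrosome gene Zp3r. MIWI, the protein of Piwil1, is a PIWI protein that binds piRNAs in spermatocytes and spermatids. Piwil1 itself is not a member.

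Estimated depth was 33 to 63.21 M reads per long RNA library, in which 30221 to 35382 genes were above 0. The summed level of 7 spermatid markers was 3694 to 6668 RPM (reads per 1 M reads of the library) in the 1n libraries and 116 to 222 RPM in the 4n libraries. For 7 spermatocyte markers the sums were 1293 to 1587 RPM in the 1n libraries and 2172 to 3371 RPM in the 4n libraries. Each sum differed without overlap in the direction of the labels, but spermatocyte markers were also well detected in the 1n libraries. The 1n Strep1 libraries and all 4n libraries belong to one library series by their names, and the 1n WT and 1n Strep2 libraries to another. In 1n cells, Strep1 genotype and library series cannot be told apart. The 4n libraries are of a single series, so the 4n values given beside each call against WT are values within a series. Piwil1 was at 35.8 ± 7.23 RPM in WT, 29.7 ± 2.65 in Strep1 and 32.9 ± 2.42 in Strep2 1n cells (SD, n = 3 each), with overlapping libraries. In 4n cells it was at 640 ± 76.1 RPM in WT, 747 ± 50.6 in Strep1 and 825 ± 64.6 in Strep2 (SD, n = 3 each). There the Strep1 libraries overlapped those of WT, and the Strep2 libraries (763 to 892 RPM) were all above WT (558 to 709 RPM). These are bulk libraries of sorted cells, in which fewer cells of a type and less RNA per cell cannot be told apart.

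Strep1 1n cells differed from WT 1n cells at 22 members, 9 of them higher and 13 lower. The higher members were Tmem37, Steap3, Slc35f5, Mcm6, Mapkapk2, Ikbke, Srgap2, Ppp1r12b and Dennd1b. Among the lower members were Htr5b, Dars, Fcmr, Dstyk, Ren1, Kdm5b, Nav1, Igfn1, Tmem9, Kif21b, Inava and Ddx59. The changes of these named members ran from a log2 fold change of -4.50 for Igfn1 to 2.92 for Tmem37, and 13 of the 22 were at least 2-fold (4 higher, 9 lower). Calls were made by limma with Benjamini-Hochberg adjustment over all genes at a false discovery rate of 0.05. Of the 167 members, 111 had enough signal to be tested, at least 0.3 RPM in at least 3 of the 9 libraries, and 56 were not tested. The 22 calls are 19.8% of the tested members, where 1.34% of all genes tested were called, 0.643% higher and 0.696% lower. Among the other protein-coding genes 150 of 14172 were called. The median log2 fold change of the tested members was 0.01 and that of all genes tested was also 0.01. Steap3 reached the filter through its Strep1 libraries alone, so it entered the test because the groups differed. Of the lower members 4, Fcmr, Igfn1 and Ren1 among them, reached the filter through WT and Strep2 alone. With no filter 18 of 159 members (11.3%) were called, where 0.483% of all genes were, and these 5 members were among them. For all 22 called members the 3 Strep1 libraries lay outside the 6 WT and Strep2 libraries. These members were picked by their calls in the same libraries, so this is a description and adds no support. The same share over all called genes was not counted. Of the 22 called members, 10 were also called in the 4n contrast that set the bounds. The share of 19.8% in 1n cells therefore depends in part on how the window was chosen.

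**Figure D1:**
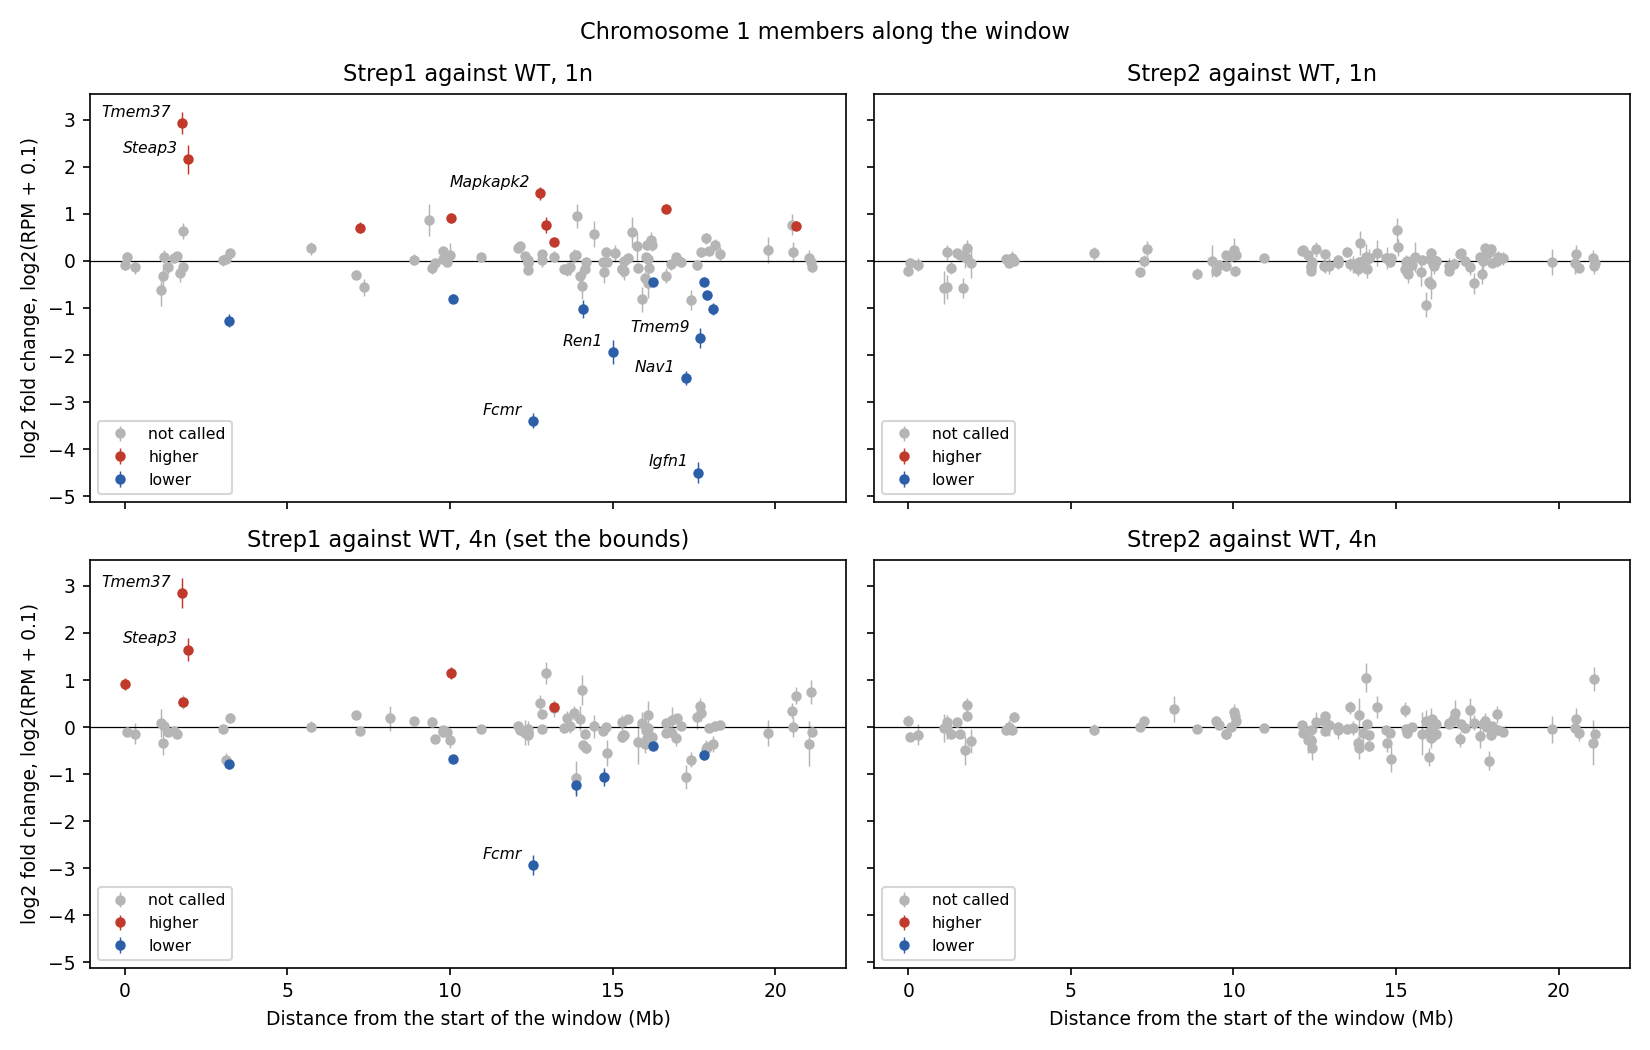
Log2 fold change (log2(RPM + 0.1), bars SE) of each tested member against its distance in Mb from the start of the window, for Strep1 and Strep2 against WT in 1n and 4n cells. Red points were called higher, blue points lower and grey points were not called at a false discovery rate of 0.05. Calls stand in both Strep1 panels, 22 in 1n and 14 in 4n cells, and in neither Strep2 panel, 1 called member is not drawn, and the 4n Strep1 panel is the contrast that set the bounds.

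The stretches beside the window also held calls. In the flank of equal length after it, 8 of 68 tested genes were called in 1n Strep1 against WT, and in the flank before it 1 of 19. The bounds therefore do not mark where the calls end on the far side. Tsn, the nearest protein-coding gene before the window, which encodes the nucleic acid-binding protein translin, measured 4.41, 5.03 and 4.21 RPM in WT and 5.82, 6.11 and 5.96 RPM in Strep1 1n cells, all above WT. Cfhr4, the nearest such gene after it, measured 0.616, 0.483 and 0.408 RPM in WT and 0.709, 0.753 and 0.462 RPM in Strep1 1n cells. Just inside the bounds, Nifk, which encodes a nucleolar protein that binds Ki-67, measured 9.96, 10.4 and 7.64 RPM in WT and 8.86, 9.42 and 8.79 RPM in Strep1 1n cells. F13b, the B subunit of coagulation factor XIII, lies just inside the far bound and measured 0.121, 0.174 and 0.104 RPM in WT and 0.0866, 0.0602 and 0.0606 RPM in Strep1 1n cells, too little to be tested. Cfhr4 and Nifk libraries overlapped between the genotypes.

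**Figure D2:**
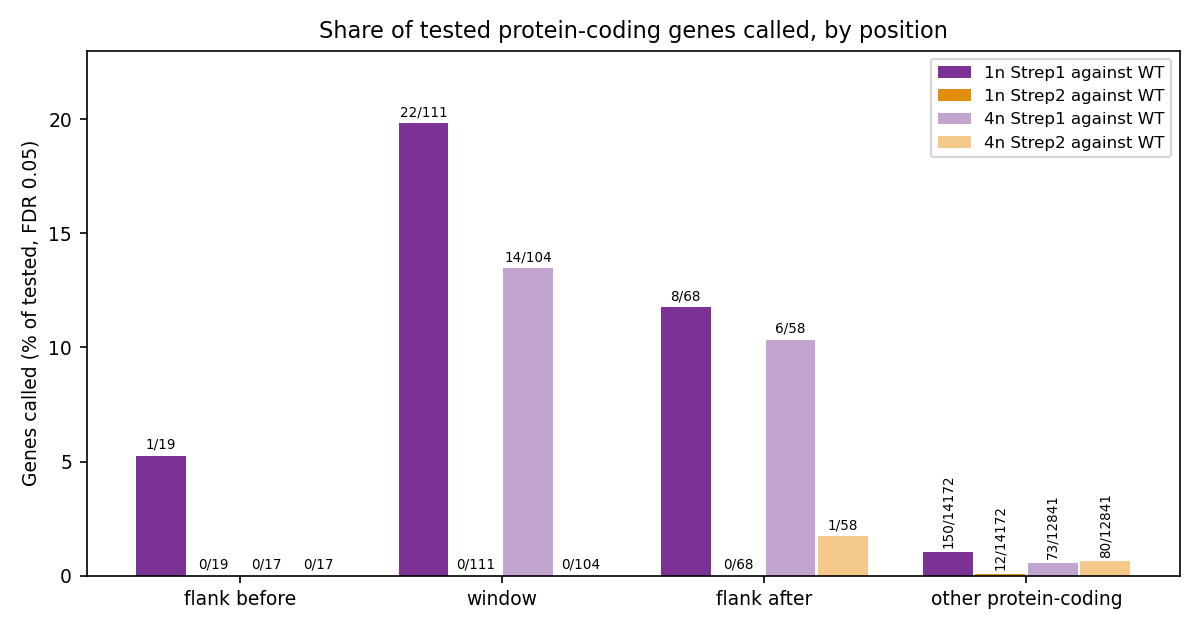
Share of tested protein-coding genes called at a false discovery rate of 0.05 in the window, in the flanks of 21.3 Mb on either side and among all other protein-coding genes (which include the flanks), with called and tested genes above each bar. In 1n cells Strep1 had 22 of 111 called in the window and 8 of 68 in the flank after it, and Strep2 had none in either. The 4n Strep1 bars describe the contrast that set the bounds.

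Promoter sequences are shown for 3 members that were above WT (Tmem37, Steap3, Mcm6) and 2 that were far below it (Fcmr, Igfn1), since the results turn on them. Each is the 200 bases before the canonical transcript start of GENCODE vM39, read from the GRCm39 genome, 5′ to 3′ on the gene's strand. They lie at chr1:120001805-120002004 for Tmem37, chr1:120193015-120193214 for Steap3, chr1:128287453-128287652 for Mcm6 and chr1:135934081-135934280 for Igfn1 on the minus strand, and chr1:130793206-130793405 for Fcmr on the plus strand. Capitals mark matches on either strand to 4 motifs, none of which contains another. They are TATAAA of the classical core promoter, GGGCGG of the binding sites of Sp1, TGACGTCA of the cyclic AMP response element and CCAAT of the binding sites of NF-Y.
Tmem37: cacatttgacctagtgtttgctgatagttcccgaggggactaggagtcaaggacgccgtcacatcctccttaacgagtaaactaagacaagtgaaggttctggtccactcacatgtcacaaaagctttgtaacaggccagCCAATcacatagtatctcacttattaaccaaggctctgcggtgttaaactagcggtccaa
Steap3: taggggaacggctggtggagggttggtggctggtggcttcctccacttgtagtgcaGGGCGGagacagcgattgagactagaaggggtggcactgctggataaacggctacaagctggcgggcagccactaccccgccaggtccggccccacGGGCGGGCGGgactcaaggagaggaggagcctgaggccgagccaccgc
Mcm6: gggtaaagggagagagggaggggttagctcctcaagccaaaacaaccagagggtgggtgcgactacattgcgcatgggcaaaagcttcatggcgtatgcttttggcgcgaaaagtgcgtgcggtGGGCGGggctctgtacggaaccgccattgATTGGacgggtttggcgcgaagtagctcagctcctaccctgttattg
Fcmr: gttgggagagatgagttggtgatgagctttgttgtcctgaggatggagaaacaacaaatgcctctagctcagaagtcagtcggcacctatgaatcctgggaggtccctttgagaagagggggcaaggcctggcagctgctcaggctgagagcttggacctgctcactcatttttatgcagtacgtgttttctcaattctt
Igfn1: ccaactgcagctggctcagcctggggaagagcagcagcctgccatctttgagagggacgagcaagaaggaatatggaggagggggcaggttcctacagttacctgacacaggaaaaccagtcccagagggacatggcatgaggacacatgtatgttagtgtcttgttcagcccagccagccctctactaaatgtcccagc
The promoters of Tmem37 and Mcm6 held a CCAAT match, those of Steap3 and Mcm6 held GGGCGG, and none of the 4 motifs was found in those of Fcmr and Igfn1. Among the 22 called members 7 promoters (31.8%) held CCAAT and 10 (45.5%) held GGGCGG, against 32.3% and 34.8% of 21770 protein-coding promoters of the same length. TATAAA and TGACGTCA were in 0 of the 22, against 9.57% and 1.59% of all. Matches are a description of the letters in these windows.

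Transporters and channels gave 3 of the 9 higher members. Tmem37, whose protein is related to the gamma subunits of voltage-gated calcium channels, spans 119993339 to 120001804. In 1n cells it measured 1.61, 1.22 and 0.676 RPM in the WT libraries, 9.32, 9.16 and 9.42 RPM in the Strep1 libraries and 0.879, 1.38 and 1.48 RPM in the Strep2 libraries. The Strep1 libraries were far above all others and close to one another, while WT and Strep2 overlapped. Strep1 exceeded WT by 2.92 on the log2 scale (SE 0.233, limma adjusted p = 2.29e-06). In 4n cells, as a description, the level was 0.293 ± 0.151 RPM in WT, 2.73 ± 0.240 in Strep1 and 0.186 RPM in Strep2 (SD, n = 3). Steap3, a ferrireductase of endosomes, spans 120118487 to 120200435 and was a low gene. It measured 0.0404, 0 and 0.052 RPM in WT, 0.491, 0.392 and 0.576 RPM in Strep1 and 0, 0.0189 and 0.0682 RPM in Strep2 1n cells. These are 4.5, 66.8 and 4 estimated reads summed over 3 libraries, so the Strep1 level rests on few reads and those of WT and Strep2 on a handful. All WT and Strep2 libraries were under the 0.3 RPM of the filter, so Steap3 was tested only through Strep1, and it could not be tested when a Strep1 library was left out. With no filter its log2 fold change was 2.16 (SE 0.251, limma adjusted p = 0.00349), and it was 0.52 with a pseudocount of 1. It was not among the 1n calls of the authors' deposited table. In 4n cells, as a description, it measured 0.199, 0.233 and 0.124 RPM in WT and 0.680, 0.999 and 0.809 RPM in Strep1. Slc35f5, a member of the nucleotide-sugar transporter family, measured 7.12, 5.51 and 5.90 RPM in WT and 9.76, 9.71 and 11.8 RPM in Strep1 1n cells (log2 fold change 0.71, SE 0.122, limma adjusted p = 0.00655), and its call was lost without Strep1 replicate 3 (adjusted p = 0.0528). Its Strep1 libraries were above those of WT and Strep2 in 1n cells, whereas its 4n libraries overlapped, at a log2 difference of -0.08. Of 11 listed transporters, pumps and channels in the window 7 were tested, 3 were higher and 0 lower in 1n Strep1. Of all tested members 19.8% were called in that comparison, and of all genes tested 1.34%. The list was made with these results known, and its called genes include the window markers Tmem37 and Steap3. Its median log2 fold change was 0.71 over the 7 tested in 1n and, as a description, 0.23 over the 6 in 4n cells, against 0.01 and -0.02 over all genes tested.

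Mcm6 and Dars, which are neighbours 57.7 kb apart by first exon, moved in opposite directions. Mcm6 encodes a subunit of the MCM helicase that unwinds DNA for replication. It measured 3.85, 3.73 and 3.56 RPM in WT, 7.78, 6.82 and 7.30 RPM in Strep1 and 3.50, 3.27 and 3.10 RPM in Strep2 1n cells. Strep1 stood apart from both other genotypes, with a log2 fold change from WT of 0.91 (SE 0.113, limma adjusted p = 0.000269). In 4n cells the Strep1 libraries read 14.3, 17.4 and 22.9 RPM and the WT libraries 7.02, 7.00 and 8.57 RPM. Dars, the aspartyl-tRNA synthetase gene, measured 61.7, 50.3 and 63.2 RPM in WT, 31.2, 36.9 and 34.6 RPM in Strep1 and 63.9, 66.5 and 66.8 RPM in Strep2 1n cells. All 3 Strep1 libraries were below the 6 others, and the gene fell by 0.81 on the log2 scale (SE 0.098, limma adjusted p = 0.000226). Its 4n means were 95.6 ± 6.14 RPM in WT and 64.2 ± 10.4 in Strep1 (SD, n = 3). Of 12 listed genes of the cell cycle, replication and repair 10 were tested, and 1, Mcm6, was called. The list of RNA and translation had 9 entries in the window, with separate entries of Zc3h11a, while its gene Tsn lies outside. All 9 were tested and 1 was called, Dars, which was lower. The lists' medians were 0.01 and -0.01. Called in 1n Strep1 were 19.8% of all tested members and 1.34% of all genes tested.

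Immune genes included Fcmr, which fell far below WT, and Ikbke, which rose. Fcmr, the gene of an Fc receptor for IgM, spans 130793406 to 130808528 and measured 3.16, 2.56 and 2.82 RPM in WT, 0.190, 0.221 and 0.152 RPM in Strep1 and 3.47, 3.43 and 3.55 RPM in Strep2 1n cells. Its Strep1 libraries were far below the 6 others, which lay near one another, and it fell by 3.40 on the log2 scale (SE 0.156, limma adjusted p = 5.06e-09). The 4n means were 0.886 ± 0.262 RPM in WT, 0.033 ± 0.014 in Strep1 and 1.03 RPM in Strep2. Ikbke, a kinase of innate immune signalling, went the other way, at 1.04, 0.756 and 0.840 RPM in WT and 1.62, 1.61 and 1.56 RPM in Strep1 1n cells (log2 fold change 0.77, SE 0.173, limma adjusted p = 0.0442). The call for Ikbke was lost without any 1 of the 6 libraries, at adjusted p-values of 0.0598 to 0.171. In 4n cells Ikbke was at 1.17 ± 0.128 RPM in WT and 2.89 ± 0.212 in Strep1 (SD, n = 3), again with all Strep1 libraries above. Of 21 listed immune and complement genes in the window 8 were tested, 1 was higher and 2 were lower, with a median of 0.04. The other 13, the interleukins among them, had too little signal to be tested. Beside these counts, 19.8% of all tested members and 1.34% of all genes tested were called in 1n Strep1. The summed level of 8 macrophage and blood markers, of which Ptprc is itself a member, was 5.57 to 6.55 RPM in WT and 5.21 to 8.30 RPM in Strep1 1n cells, and the ranges overlapped.

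**Figure D3:**
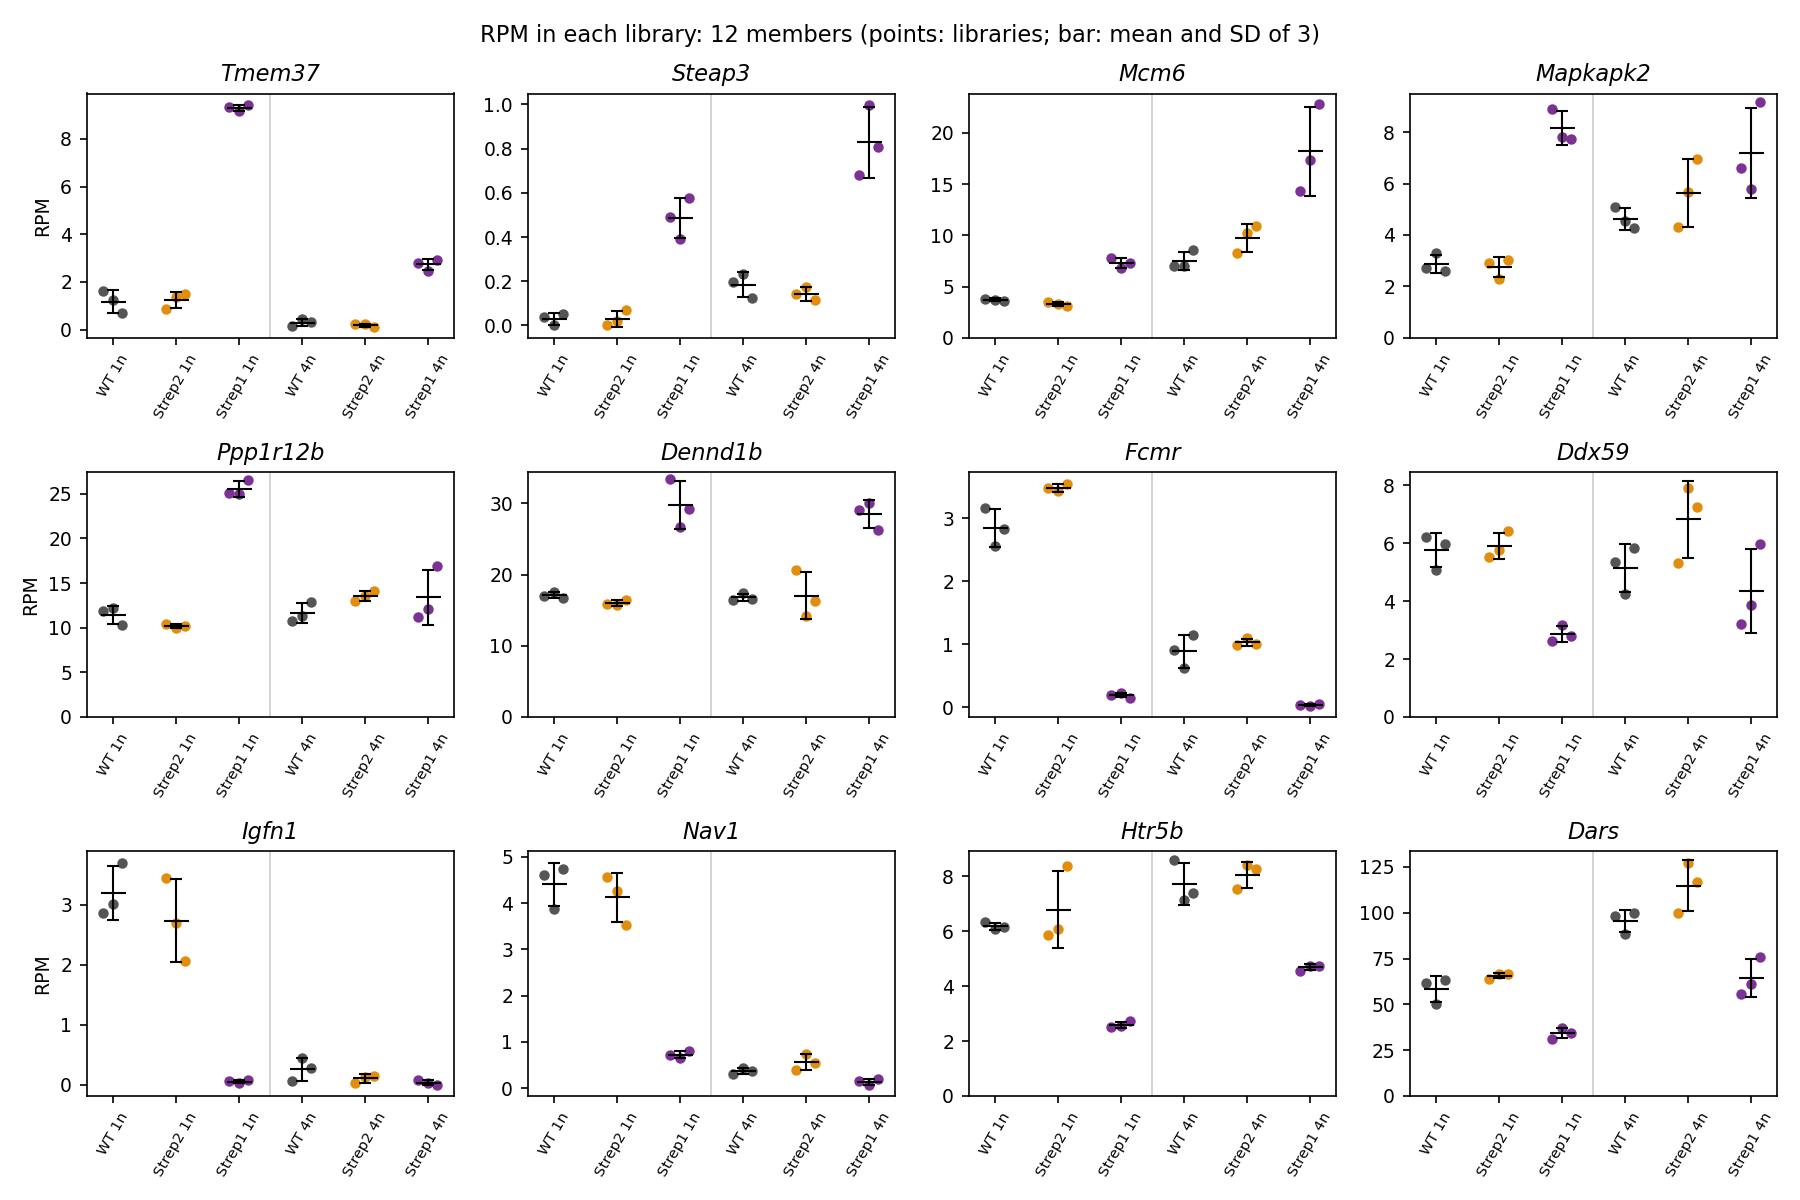
RPM of 12 members in each of the 18 long RNA libraries, with points for libraries, bars for the mean and SD of 3, grey for WT, orange for Strep2 and purple for Strep1, and a separate linear axis for each gene. In 1n cells the Strep1 points lie apart from the WT and Strep2 points for all 12 genes, above them for Tmem37, Steap3, Mcm6, Mapkapk2, Ppp1r12b and Dennd1b and below them for the other 6.

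From Nav1 to Ddx59, 6 of 11 tested members were lower and 0 higher in Strep1 1n cells, where 0.696% of all genes tested were lower. Both ends of these 831 kb were set at lower calls, so the count is a description. The authors' deposited table did not call Kif21b in 1n cells. It did call Mroh3, a member of this run that was not called here (log2 fold change 0.48, limma adjusted p = 0.0785). Nav1, a neuron navigator protein of the microtubule cytoskeleton, measured 4.62, 3.87 and 4.73 RPM in WT, 0.719, 0.653 and 0.803 RPM in Strep1 and 4.57, 4.26 and 3.54 RPM in Strep2 1n cells. Igfn1, a gene of a muscle protein with immunoglobulin-like and fibronectin domains, spans 135881316 to 135934080 and measured 2.85, 3.01 and 3.70 RPM in WT, 0.052, 0.0201 and 0.0758 RPM in Strep1 and 3.44, 2.69 and 2.06 RPM in Strep2. For both genes the Strep1 libraries were far below the 6 others. Nav1 fell by 2.49 on the log2 scale (SE 0.151, limma adjusted p = 1.03e-07) and Igfn1 by 4.50 (SE 0.221, limma adjusted p = 9.53e-09), the latter with 6.5 estimated reads in Strep1 against 423 in WT. In 4n cells Nav1 was at 0.309, 0.431 and 0.364 RPM in WT and 0.153, 0.0731 and 0.193 RPM in Strep1, without overlap, and Igfn1 was too low to be tested, with means of 0.255 and 0.0336 RPM and overlapping libraries. Tmem9, a membrane protein gene 45.1 kb from Igfn1 by first exon, measured 1.54, 1.99 and 1.05 RPM in WT and 0.407, 0.402 and 0.455 RPM in Strep1, a fall of 1.64 on the log2 scale (SE 0.218, limma adjusted p = 0.000568). In 4n cells Tmem9 lay on the other side, at 1.05 ± 0.125 RPM in WT and 1.57 ± 0.0616 in Strep1 (SD, n = 3). Ddx59, a DEAD-box RNA helicase gene, was at 5.76 ± 0.590 RPM in WT and 2.87 ± 0.280 in Strep1 (SD, n = 3, limma adjusted p = 0.000200), and its 4n libraries overlapped, at means of 5.14 and 4.35 RPM. Inava, an activator of innate immunity, and Kif21b, a kinesin motor gene, were the mildest of the run, at 40.6 ± 3.45 against 25.1 ± 1.76 RPM (limma adjusted p = 0.000548) and 43.7 ± 6.90 against 32.8 ± 1.97 RPM (limma adjusted p = 0.0371). Kif21b lost its call without WT replicate 1 or 2 or without any 1 Strep1 library, at adjusted p-values of 0.0582 to 0.182. In 4n cells the Strep1 libraries of both were below those of WT, at means of 22.3 against 28.1 RPM for Inava and 21.7 against 31.2 RPM for Kif21b. Of the 6 lower members, Kif21b was the 1 called in 4n cells. The whole 5 Mb step that holds the run, 15 to 20 Mb into the window, had 1 higher and 8 lower of 41 tested members, while the step before it, 10 to 15 Mb, had 4 higher and 3 lower of 34.

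The other higher members were Mapkapk2, Ppp1r12b, Dennd1b and Srgap2, which stand on no common list. Mapkapk2, a kinase activated by p38, measured 2.72, 3.28 and 2.62 RPM in WT, 8.90, 7.81 and 7.71 RPM in Strep1 and 2.91, 2.30 and 3.05 RPM in Strep2 1n cells (log2 fold change from WT 1.43, SE 0.141, limma adjusted p = 2.28e-05). Ppp1r12b, a regulatory subunit of protein phosphatase 1, measured 11.8, 12.2 and 10.3 RPM in WT, 25.1, 25.0 and 26.5 RPM in Strep1 and 10.4, 9.92 and 10.1 RPM in Strep2 (log2 fold change 1.11, SE 0.089, limma adjusted p = 2.54e-06). Both genes had Strep1 libraries well above the others in 1n cells. In 4n cells Mapkapk2 measured 5.10, 4.55 and 4.26 RPM in WT and 6.61, 5.78 and 9.15 RPM in Strep1, while the libraries of Ppp1r12b overlapped at a log2 difference of 0.09. Dennd1b, which encodes an exchange factor for Rab GTPases, was at 17.1 ± 0.438 RPM in WT and 29.7 ± 3.38 in Strep1 1n cells (SD, n = 3, limma adjusted p = 0.000492), and at 29, 30.1 and 26.3 RPM in the 4n Strep1 libraries against 16.4, 17.4 and 16.6 in WT. Srgap2, a GTPase-activating protein of the Slit-Robo pathway, was the mildest of the higher members, at 31.1 ± 2.86 against 42.3 ± 1.54 RPM (limma adjusted p = 0.0455), and lost its call without WT replicate 1 or 2 or without any 1 Strep1 library (adjusted p-values 0.0695 to 0.182). Its 4n means were 45.4 ± 3.18 RPM in WT and 65.04 ± 7.78 in Strep1 (SD, n = 3). Of 10 listed kinases, phosphatases, ligands and receptors 8 were tested, Mapkapk2 was higher and Dstyk lower, with a median of -0.16. Of 20 listed genes of the cytoskeleton and vesicle traffic 13 were tested, Srgap2 was higher and Nav1 and Kif21b were lower, with a median of -0.12. Beside both lists, 19.8% of all tested members and 1.34% of all genes tested were called in 1n Strep1.

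The remaining lower members were a receptor, a kinase, the renin gene and a chromatin gene. Htr5b, a serotonin receptor gene, measured 6.32, 6.06 and 6.16 RPM in WT, 2.50, 2.53 and 2.73 RPM in Strep1 and 5.86, 6.09 and 8.38 RPM in Strep2 1n cells. Strep1 was below both other genotypes, by 1.27 from WT on the log2 scale (log2 fold change -1.27, SE 0.135, limma adjusted p = 5.57e-05), and in 4n cells its means were 7.71 ± 0.775 RPM in WT and 4.68 ± 0.1103 in Strep1 (SD, n = 3). Dstyk, a kinase gene that was also among the members falling most from 4n to 1n cells, was at 1.34 ± 0.3003 RPM in WT and 0.621 ± 0.086 in Strep1 1n cells (SD, n = 3, limma adjusted p = 0.0111), and lost its call without WT replicate 1 or Strep1 replicate 2 or 3 (adjusted p-values 0.0592 to 0.0702). Its 4n libraries overlapped, at means of 10.5 RPM in WT and 8.57 RPM in Strep1. Ren1, the renin gene, measured 0.323, 0.262 and 0.312 RPM in WT, 0.0173, 0 and 0 RPM in Strep1 and 0.462, 0.663 and 0.523 RPM in Strep2 1n cells. This was 39 estimated reads in WT against 1 in Strep1, a ratio of 42.4 after division by the total reads of each group (95% exact interval 7.17 to 1717, counting error only), with a limma adjusted p of 0.000425, or 0.00202 with no filter. In 4n cells Ren1 was near 0 in every library of WT and Strep1, at most 0.0475 RPM. Kdm5b, a demethylase of histone H3 lysine 4 and one of the most abundant members, measured 248, 254 and 239 RPM in WT, 179.9, 187 and 192 RPM in Strep1 and 241, 253 and 270.1 RPM in Strep2 1n cells, a fall of 0.45 on the log2 scale from WT (SE 0.068, limma adjusted p = 0.00195). Its 4n libraries overlapped, at 424, 381 and 436 RPM in WT and 284, 315 and 408 RPM in Strep1. It was the 1 call among 9 tested of 14 listed genes of transcription and chromatin, whose median was -0.13, and Ren1 was the 1 call among 9 tested of 11 listed genes of metabolism and proteases, whose median was 0.03. Called in 1n Strep1 were 19.8% of all tested members and 1.34% of all genes tested.

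Markers of testicular somatic cells were low in all libraries, and in 1n cells the Sertoli cell sum alone lay apart from WT in the lines. The summed level of 7 Sertoli cell markers was 5.84 to 9.39 RPM in WT, 3.46 to 5.38 RPM in Strep1 and 4.22 to 4.99 RPM in Strep2 1n cells. None of the 7 was at 0 in every library of a group, and 4 of them in WT and 5 in each line had a mean under 0.3 RPM. Both lines lay below WT on that sum. For 5 peritubular and endothelial cell markers the sums in 1n cells were 12.8 to 17.7 RPM in WT and 13.7 to 16.8 RPM in Strep1. In Strep2 1n cells they were 12.4 to 13.6 RPM, and in WT 4n cells 3.03 to 4.22 RPM. For 6 Leydig cell markers the ranges were 1.06 to 3.39 RPM in WT and 0.827 to 1.26 RPM in Strep1, which overlap. The part of these markers in the results was not tested.

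Strep2 did not show calls in the window in either population. In 1n cells 0 of 111 tested members were called against WT by limma, where 0.105% of all genes tested were called, 0.0429% higher and 0.0619% lower. The smallest adjusted p was 0.328, and log2 fold changes ran from -0.94 to 0.66. An unadjusted limma p under 0.05 was found for 13 of the 111 members and for 1894 of all 20988 genes tested. In 4n cells 0 of 104 were called by limma, where 0.547% of all genes tested were called (0.292% higher and 0.255% lower). The smallest limma adjusted p was 0.109, and log2 fold changes ran from -0.72 to 1.05. Of the 104 members 14 had an unadjusted limma p under 0.05, as did 3178 of all 18463 genes tested. The authors' deposited table called 1 of 120 listed members in 1n cells, an entry of Zc3h11a, where it called 0.536% of all listed genes. For 4n cells 1 of 90 members was called in the authors' deposited table, Tmcc2, a transmembrane coiled-coil gene, where 2.69% of all listed genes were. The lines were also compared directly. In 1n cells Strep1 differed from Strep2 at 22 of 111 tested members, 8 higher and 14 lower, where 1.37% of all genes tested were called, 0.586% higher and 0.781% lower. Gpr39, a zinc-sensing receptor gene, measured 1.45, 1.55 and 1.36 RPM in Strep1 and 3.00, 2.36 and 2.59 RPM in Strep2 1n cells and was called in this comparison (log2 difference -0.82, SE 0.178, limma adjusted p = 0.0331) but not against WT. Without any 1 of these 6 libraries Gpr39 was not called (adjusted p-values 0.0619 to 0.215). Under the 11 other settings run, Dstyk lost its call against Strep2 in 9 and Ikbke in 6. Srgap2, called against WT, was not called against Strep2 (log2 difference 0.38, limma adjusted p = 0.0704). The Strep1 libraries are shared by both comparisons, so their calls are not independent, and both coincide with the library series.

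In 4n cells, the contrast from which the bounds came, Strep1 differed from WT at 14 of 104 tested members, 6 higher and 8 lower, where 0.932% of all genes tested were called, 0.552% higher and 0.379% lower. With no further scaling of the deposited RPM the count was 9, 6 higher and 3 lower. Tmem37, Steap3, Mcm6 and Srgap2 were among the higher members and Htr5b, Dars, Fcmr, Kdm5b and Kif21b among the lower, each on the same side as in 1n cells. Steap3 again reached the filter of 0.3 RPM through its Strep1 libraries alone, with 4n means of 0.185 RPM in WT and 0.144 RPM in Strep2. It could not be tested in 4n cells when a Strep1 library was left out. Kdm5b was called although its 4n libraries overlapped. Of the 22 members called in 1n cells 20 were tested in 4n cells, and 18 of these had the same sign. Calls were made for 10 of them in 4n cells too. Since 4n calls set the bounds, the agreement is partly built in and is a description. The exceptions were Slc35f5, at -0.08, and Tmem9, at 0.46. Igfn1 and Ren1 had too little signal in 4n cells. Members called in 4n but not in 1n cells were Nifk, Dbi, Lemd1 and Pik3c2b. Nifk measured 6.44, 5.08 and 6.94 RPM in WT and 10.3, 12.3 and 14.9 RPM in Strep1 4n cells. Dbi, an acyl-CoA-binding protein gene, had means of 5.35 and 8.34 RPM. Lemd1, a gene of the LEM domain family, had means of 2.36 and 1.06 RPM, and Pik3c2b, a class II phosphoinositide 3-kinase gene, had means of 0.979 and 0.446 RPM. Dars, Srgap2 and Kif21b were not called in 4n cells without scaling. Kdm5b, Dbi, Lemd1 and Pik3c2b were not called without scaling either, nor in 3 to 6 of the 6 fits that left out a library. Whether a member's Strep1 difference itself differed between 1n and 4n cells was not tested.

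**Figure D4:**
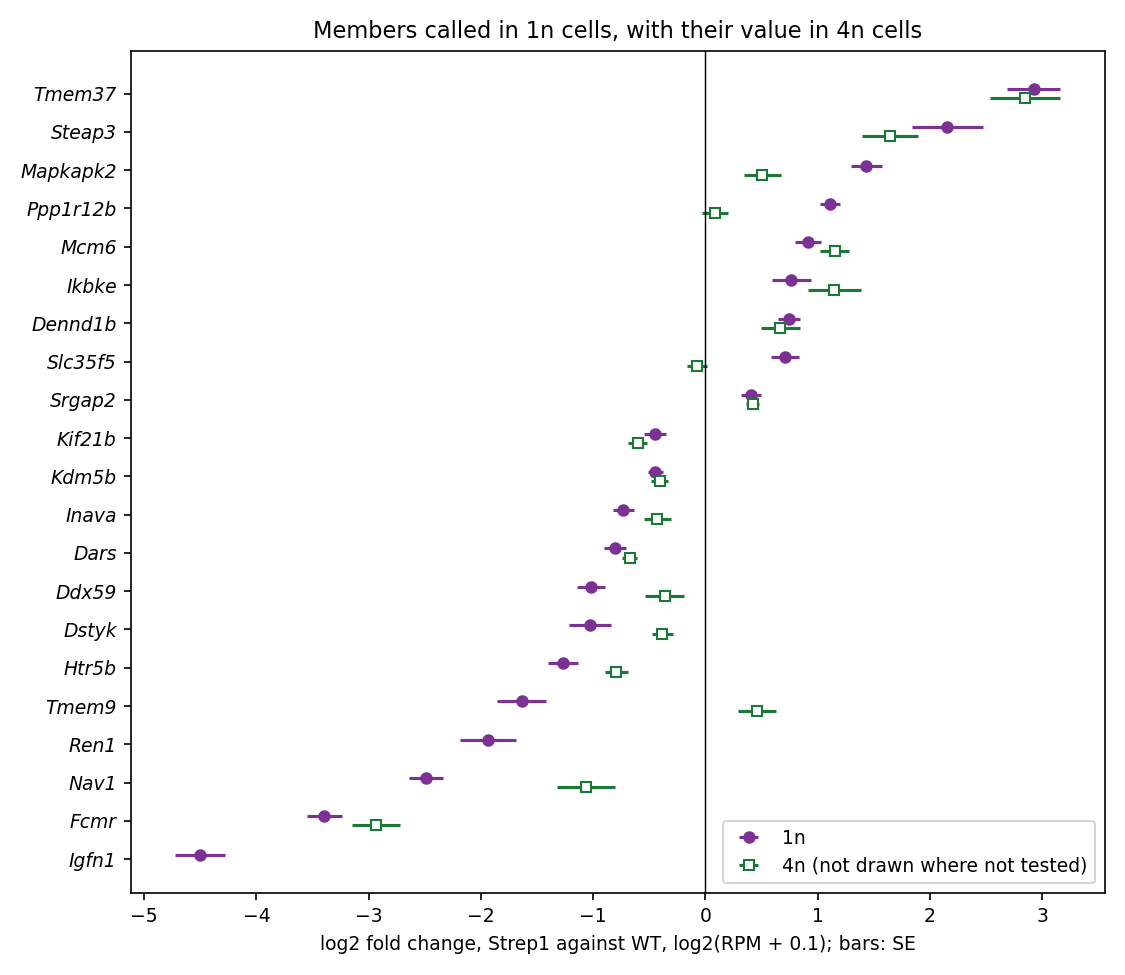
Log2 fold change of Strep1 against WT (log2(RPM + 0.1), bars SE) for 21 of the 22 members called in 1n cells, with the 1n value as a filled circle and the 4n value as an open square. Of the 19 members with a 4n value 17 lie on the same side of 0, and Slc35f5 and Tmem9 lie on the other. The 4n values are of the contrast that set the bounds, so this is a description. Igfn1 and Ren1 have no 4n value.

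The antisense strand of the same genes was a readout that the bounds did not use. In 1n cells 46 members had enough antisense signal to be tested and 4 were called, where 0.715% of all genes tested on this strand were called, 0.336% higher and 0.379% lower. Of the 4, 3 were higher and 1 lower, and the 3 higher ones are described here. Lgr6, Elf3 and Rnpep, a receptor for R-spondins, an epithelial transcription factor and an aminopeptidase, had more antisense RNA in Strep1. Antisense Elf3 measured 1.32, 0.930 and 0.996 RPM in WT, 4.53, 4.62 and 4.52 RPM in Strep1 and 1.05, 0.729 and 1.07 RPM in Strep2 (log2 fold change from WT 2.04, SE 0.191, limma adjusted p = 1.96e-06). Antisense Lgr6 was at 1.14 ± 0.290 RPM in WT and 3.88 ± 0.692 in Strep1 (SD, n = 3, limma adjusted p = 3.56e-05). Antisense Rnpep was at 0.170 ± 0.031 RPM in WT and 0.899 ± 0.049 in Strep1. It reached the filter through its Strep1 libraries, since all WT libraries and all but 1 of Strep2 were under 0.3 RPM, and with no filter its limma adjusted p was 0.0106. Elf3 and Rnpep are adjacent members, and Ptpn7, Arl8a and Gpr37l1 lie between Lgr6 and Elf3. On the sense strand Lgr6 and Rnpep were tested and not called, at log2 fold changes of -0.08 and 0.07, and Elf3 had too little signal. In 4n cells antisense Elf3 measured 3.68, 3.39 and 2.85 RPM in WT and 8.78, 7.51 and 6.94 RPM in Strep1, and the libraries of both genotypes did not overlap there for Lgr6 and Rnpep either.

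**Figure D5:**
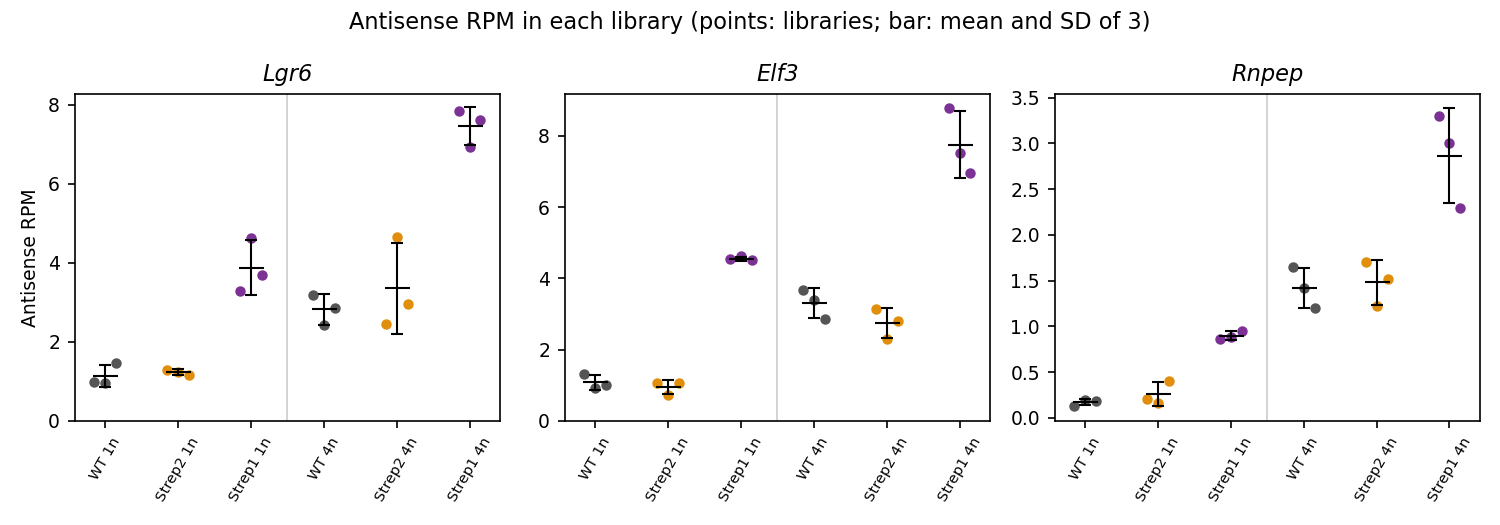
Antisense RPM of the 3 members called higher on that strand in 1n cells, in each of the 18 libraries, with points for libraries, bars for the mean and SD of 3, and a separate linear axis for each gene. The Strep1 points (purple) lie above the WT (grey) and Strep2 (orange) points for Lgr6, Elf3 and Rnpep, in 1n and in 4n cells.

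Apart from genotype, most members differed between the populations, as most genes did. In Strep1, whose 1n and 4n libraries are of one series, 94 of 115 tested members differed between 1n and 4n cells by limma, 40 higher and 54 lower in 1n cells, where 85.1% of all genes tested were called, 41.6% higher and 43.5% lower. In WT, where population coincides with library series, 90 members were called, 38 higher and 52 lower, where 85% of all genes tested were called, 41.1% higher and 43.9% lower. With no further scaling the splits were 48 higher and 48 lower in Strep1 and 50 higher and 43 lower in WT, so which side held more members depended on scaling. The largest rises to 1n cells in Strep1 were in Plekha6, a pleckstrin homology domain gene, at a log2 fold change of 4.13 (SE 0.235), in Chit1, a chitinase gene, at 4.07, and in Lemd1, at 4.07. The largest falls were in Ube2t, a ubiquitin-conjugating enzyme of DNA crosslink repair, at -4.23 (SE 0.137), in Dstyk, at -3.85, and in Mgat5, an N-glycan-branching glycosyltransferase gene, at -3.22. All 6 had the same sign in WT, from -4.05 for Ube2t to 3.89 for Chit1. Of the 10 listed genes of the cell cycle, replication and repair that were tested, 3 were higher and 7 lower in 1n cells in Strep1 and likewise in WT, the 7 being Ccnt2, Zranb3, Mcm6, Mdm4, Ube2t, Kif14 and Aspm.

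By level, the members ranged from abundant to undetected. In WT 1n cells 151 of the 167 had a mean above 0, 92 reached 1 RPM and 49 reached 10 RPM, and in Strep1 1n cells the counts were 155, 87 and 50. The most abundant by RPM in WT 1n cells were Dyrk3, a kinase gene, at 271 ± 4.71 RPM, Kdm5b at 247 ± 7.18, Plekha6 at 243 ± 40.8, R3hdm1 at 239 ± 24.2 and Zp3r at 191 ± 11.2 RPM (SD, n = 3). Per kb of exon, which allows levels to be set between genes, Zp3r stood at 90.1 and Dyrk3 at 63.8 RPM per kb, and Kdm5b at 14.9. In WT 4n cells the 5 most abundant were Kdm5b at 414 ± 28.6 RPM, the calcium pump gene Atp2b4 at 288 ± 25.5, R3hdm1 at 202 ± 9.35, the p53 regulator Mdm4 at 171 ± 11.3 and Cd55b, a complement-regulator gene with a close copy in Cd55, at 111 ± 10.3 RPM. Of these 8 genes Kdm5b alone was called in Strep1 against WT.

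Small RNA bound by MIWI was measured in Strep1 testes with no control library, so it is described with no test. Summed over the members, the 5 libraries held 238 ± 34.1 RPM of sense small RNA (SD, range 211 to 287) and 11.9 ± 1.04 RPM of antisense. At least 1 RPM of sense small RNA was found for 41 members, most of all for Mgat5 at 68.4 ± 2.80 RPM, Epb41l5, a membrane-cytoskeleton linker gene, at 22.7 ± 2.24 RPM, and Dennd1b at 14.4 ± 0.9504 RPM. Antisense small RNA reached 1 RPM for 1 member, Mfsd4a, a transporter family gene, at 8.41 ± 1.06 RPM, followed by Actr3, of the actin-nucleating Arp2/3 complex, at 0.464 RPM and Mybph, a myosin-binding protein gene, at 0.303 RPM. Of the 22 members called in Strep1 1n cells, 8 had at least 1 RPM of sense and 0 had 1 RPM of antisense small RNA.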

How the data were processed

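Long RNA was measured in 18 libraries of sorted mouse testicular cells and MIWI-bound small RNA in 5. The values used are RPM per gene and strand as deposited by the authors, who counted reads in fractions: 39.6% to 44.3% of non-zero gene values were within 0.01 of whole reads, so no count model was run. The denominator of RPM is not given in the sources used here. The build was GRCm39, per the submitters' processing notes, which name STAR, Bowtie, featureCounts, cutadapt, DESeq2, DESeq and Salmon 1.3.0 with no roles. Another table deposited by the authors holds normalized signal per library, log2 fold changes, their standard errors (the unit score here) and p-values, and served as an alternative.

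RPM was tested with limma 3.58.1 (trend on) in R 4.3.3 with the data.table package (1.17.8), on log2(RPM + 0.1), for genes that reached 0.3 RPM in 3 or more of the libraries fitted. A trimmed mean of log ratios scaled the libraries, and the 9 libraries of a population (18 for 1n against 4n) were fitted together. Benjamini-Hochberg adjustment ran over all genes at a false discovery rate of 0.05. Fold changes on this scale understate the change of low genes. The procedure was tested on simulated data. Depth was estimated from the RPM of 1 read, and intervals cover counting error only. Gene spans came from GENCODE vM39, which matched 164 of the 167 members, because the files list 1 exon per gene.

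The members and gene lists were chosen with earlier results of these data known. Named members were those given as markers of the window, called in any line against WT, most abundant in WT, changed most between populations, richest in small RNA or at the edges; other genes named only as examples of a list were chosen after their values were seen. Alternatives were another pseudocount, no filter, no scaling, only the groups compared, a replicate block, each library left out and the authors' deposited table. The small RNA tables held 4 value columns of no sample in the labels, which were not used. Of the members counted among the calls, 1 on the sense and 1 on the antisense strand are not reported here.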

Additional observations from a re-analysis of the deposited data

Results flagged for a closer look

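Tmem9 was marked for its opposite sides in the populations. Every Strep1 library lay below every WT library in 1n cells (log2 fold change -1.64) and above every WT library in 4n cells (0.458, or 0.46 rounded), where the levels were 1.63, 1.56 and 1.51 RPM in Strep1 and 1.16, 0.913 and 1.08 RPM in WT. The difference between the populations was not tested. The 1n value coincides with the library series, and the 4n value lies within one. Among the 5 small RNA libraries, 16 sets of values were examined for a library far from the others, and 0 were marked.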

How the results depend on the processing

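Counts of called members in 1n Strep1 against WT stayed between 18 and 24 under the other settings run on all libraries, against 22, and 29 of 238 values of single members lost their call, none of them turning sign. Calls lost most often were those of Ikbke (9 of 11 settings), Kif21b (8), Srgap2 (7) and Dstyk (4). For 4n Strep1 against WT 33 of 151 values lost their call, Dbi, Kdm5b and Pik3c2b in 8 of 11 settings each and Lemd1 in 6, and no further scaling gave 9 members in place of 14. The authors' deposited table called 1 member for Strep2 in 1n and 1 in 4n cells in place of 0. It called 24 of 113 listed members in 1n Strep1 against WT, where it called 2.26% of all listed genes, and 20 of the 24 were called here too and on the same side. Its 24 calls were 12 higher and 12 lower, against 9 higher and 13 lower here. Called only there were Dbi, Nfasc, an entry of Zc3h11a and Mroh3, and called only here were Steap3 and Kif21b. Leaving out 1 library at a time gave 16 to 21 members for 1n Strep1 against WT, 10 to 12 for 4n Strep1 against WT, 0 for both Strep2 comparisons, 17 to 20 for 1n Strep1 against Strep2, 91 to 95 for Strep1 and 87 to 90 for WT between populations, and 4 to 5 on the antisense strand. Fold sizes of members near 0 moved with the pseudocount: Igfn1 in 1n Strep1 ran from -4.63 to -2.02 on the log2 scale. Depth limits Steap3, Ren1 and Igfn1, which rest on few reads in a group.

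Replicate numbers are shared by the groups. Between genotypes, correlations of deviations of same-numbered libraries were -0.143 to 0.267 in 1n and -0.461 to 0.454 in 4n cells. For other-numbered libraries they were -0.191 to 0.195 and -0.528 to 0.449. The main fits therefore did not pair libraries by number. With 3 libraries per group this cannot exclude pairing, and pairing of 1n with 4n libraries was not examined. With a replicate block the counts were 21 for 1n and 13 for 4n Strep1 against WT, 0 for both Strep2 comparisons, 22 for 1n Strep1 against Strep2, 93 and 90 between populations, and 4 on the antisense strand.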
